A study of Rattus norvegicus with 4 samples.

Results

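Genes of heme synthesis and breakdown were followed in the rat liver before and after inhalational anesthesia. They were taken by symbol from the deposited gene tables as Alas1, Alad, Uros, Urod, Cpox, Ppox and Fech for synthesis and Hmox1 and Blvrb for breakdown, 9 of 16999 genes in all. Alas2, Hmox2 and Blvra, 3 further enzymes of the pathway, are given beside them. The study compared sevoflurane with desflurane, both fluorinated ethers that are inhaled as general anesthetics. All 4 RNA-seq libraries came from livers of wild type rats, and there was 1 library per group. In sevoflurane 0 h and desflurane 0 h, the controls, rats were killed as soon as they lost consciousness under 4.5% sevoflurane or 6% desflurane, so that the controls also received the agent. In sevoflurane 6 h and desflurane 6 h the same agents were inhaled for 6 h. Strain, age, sex and whether a library held 1 animal or a pool are not given in the labels. Per the series description, control and anesthetized livers were taken 6 h apart. The effects of the agent, of the time of day and of anything else that came with 6 h of anesthesia cannot be told apart in these libraries.

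Heme is built in a chain of enzymes that starts and ends in the mitochondrion. ALAS1, the housekeeping 5-aminolevulinate synthase, joins glycine to succinyl-CoA and is the rate-limiting and most tightly regulated step in liver, where most new heme goes into cytochrome P450 enzymes and where heme itself holds ALAS1 down. ALAS2 is the form of the same enzyme made in developing red blood cells. Heme oxygenase opens the ring to biliverdin, carbon monoxide and iron, and biliverdin reductase turns biliverdin into bilirubin, which the liver conjugates and excretes into bile.

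Alas1 was higher after both agents, and of the other 8 members 7 had ratios between 0.69 and 1.16 with either agent, with Uros apart from them. The upstream sequence of Alas1 is shown with those of Alad, the next enzyme of the chain, and Urod, the member with the flattest level, so that the start region of the gene with the largest change can be read beside those of 2 enzymes with small ones. Each run is the 250 bases before the RefSeq transcription start in GRCr8, read 5′ to 3′ on the minus strand that carries the gene, and capitals mark the bases of a searched motif.
Alas1, chr8:115768643-115768892, minus strand: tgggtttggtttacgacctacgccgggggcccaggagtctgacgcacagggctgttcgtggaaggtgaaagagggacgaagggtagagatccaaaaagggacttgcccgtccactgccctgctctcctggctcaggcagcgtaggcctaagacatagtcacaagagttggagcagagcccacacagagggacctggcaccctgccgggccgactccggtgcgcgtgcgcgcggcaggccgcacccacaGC
Alad, chr5:80987902-80988151, minus strand: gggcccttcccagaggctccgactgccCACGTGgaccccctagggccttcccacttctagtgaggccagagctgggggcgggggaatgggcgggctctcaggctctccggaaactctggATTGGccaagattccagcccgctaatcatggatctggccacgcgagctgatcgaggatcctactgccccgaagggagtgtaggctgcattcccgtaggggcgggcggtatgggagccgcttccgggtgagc
Urod, chr5:135705381-135705630, minus strand: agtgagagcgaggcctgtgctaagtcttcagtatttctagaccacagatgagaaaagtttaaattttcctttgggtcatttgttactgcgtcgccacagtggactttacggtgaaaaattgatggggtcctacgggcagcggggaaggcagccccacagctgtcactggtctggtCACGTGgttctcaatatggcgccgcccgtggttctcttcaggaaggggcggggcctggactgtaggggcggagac

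Windows of 300 bases, from 250 before to 50 after the start, were listed for 10 of these 12 genes, with 2 windows for Hmox2. Cpox and Hmox1 had none among the sequences used here. 7 motifs were searched on both strands, and the share of all 33469 windows that held each one is given as background. The core of the nuclear respiratory factor 1 site, GCGCATGC, was found in 2.47% of all windows and, among these genes, in that of Alas1, where 2 overlapping matches on opposite strands ran from base -2 to +6 and from +1 to +8. The 2 capitals at the end of the Alas1 run are the first bases of that match. The E-box CACGTG that clock proteins bind was present in 6.42% of all windows, in Alad at -223 to -218 and again at +12 to +17, and in Urod at -75 to -70. CCAAT, in 37.5% of all windows, was found in Alad, Blvra and Ppox. The antioxidant response element TGACNNNGC, in 12.1%, was found in Blvra and Hmox2, and the forkhead site TGTTTAC, in 3.78%, in Urod at +30 to +36. No window of these genes held the cAMP response element TGACGTCA or the TATA box TATAAA, which 1.83% and 14.2% of all windows did. Of the 250 bases shown, 64% were G or C in Alas1, 65.6% in Alad and 54.4% in Urod. A match describes letters and not binding. In every library the main assembled locus over Alas1 began 949 to 1040 bases inside the annotated rn6 start. Whether transcription began at the RefSeq start shown was not tested.

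Levels are given as the deposited TPM, which is scaled for gene length and library size. TPM stands for transcripts per 1e6 transcripts. Here assembled loci alone filled that total, and named genes added 0.766 to 0.789 of it, so the values are not strict shares. The libraries held between 3.50 and 5.57 Gb of aligned bases, with the least in sevoflurane 0 h, and a TPM of 2 stood for a mean coverage of 4.72 to 7.28 reads per base. Hepatocyte markers were abundant in every library, and Alb, the albumin gene and the most abundant of them, took 6.91% to 7.50% of the TPM of named genes. Of the 9 hepatocyte markers, 0 were called with either agent. All 9 members were above a TPM of 2 in all 4 libraries, so that none was lost to the filter on low values. A gene was called higher or lower between 2 libraries when its TPM was above 2 in the higher one and the ratio was above 2. With 1 library per group this is a rule of size without a test.

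Alas1 had a TPM of 73.5 in sevoflurane 0 h, 582 in sevoflurane 6 h, 60.9 in desflurane 0 h and 979 in desflurane 6 h. Both 6 h libraries lay far above both controls, which differed from each other by a ratio of 0.83. The gene lies at chr8:114927706-114941038 on the minus strand in rn6, the build named in the submitters' processing notes. Its level was 7.92 times that of the control after sevoflurane and 16.1 times after desflurane. Across other scalings, other controls and the assembled form of the gene, these ratios ranged from 7.46 to 9.56 and from 13.3 to 17.4. Only 0.254% of the genes tested had a larger increase with sevoflurane and 0.0717% with desflurane. Ranked by TPM among all genes, Alas1 stood at place 875 in sevoflurane 0 h and 119 in sevoflurane 6 h, and at 1046 and 74 in the desflurane pair. After 6 h the desflurane library was 1.68 times as high as the sevoflurane library, which is below the ratio of 2. The inhaled concentrations differed between the agents, so this is a comparison of those exposures.

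**Figure D1:**
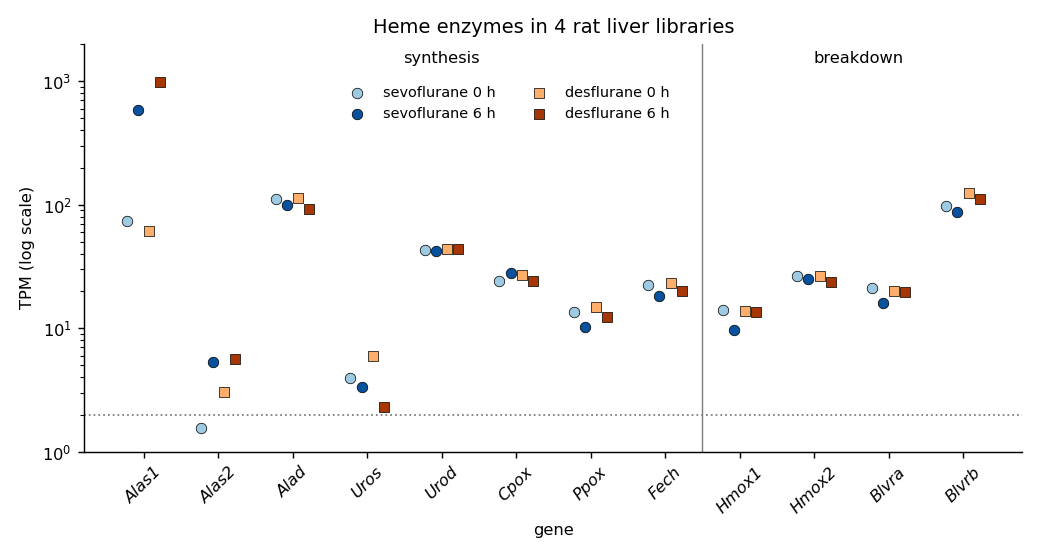
TPM on a log scale of 12 heme enzymes, one point per library, with circles for sevoflurane, squares for desflurane, pale for 0 h and dark for 6 h. The dotted line is a TPM of 2. Alas1 separates into 60.9 and 73.5 at 0 h and 582 and 979 at 6 h, while the 4 points of Urod nearly coincide.

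Counts over the members were small beside this change. With sevoflurane 1 of the 9 members (Alas1) was called higher and 0 lower, where 5.04% of the 8270 genes tested were higher and 3.71% lower. With desflurane 1 member (Alas1) was called higher and 1 (Uros) lower, against 4.1% and 5.55% of 8372 genes. Between the controls 0 members were called, where desflurane 0 h had 1.96% of 8263 genes higher and 0.799% lower. Between the 6 h libraries 0 members were called as well, beside 2.21% of 8229 genes higher and 1.77% lower with desflurane. The median change of the members on the log2(TPM + 1) scale was -0.18 with both agents, where that of all genes tested was 0.05 with sevoflurane and -0.10 with desflurane. A scaling of the libraries by their median ratio brought the median of all genes to about 0, and that of the members to -0.23 with sevoflurane and -0.07 with desflurane. As deposited, 7 of the 9 ratios were below 1 with sevoflurane and 8 with desflurane, and after that scaling 7 and 6 were.

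A model over all 4 libraries asked which genes changed in common after 6 h, with the agents standing in as replicates and as a block. limma called 4.69% of 8024 genes higher and 3.94% lower at an adjusted p under 0.05, 692 in all, and 1 of the 9 members. That member was Alas1, with a common change of 3.48 ± 0.19 (SE) on the log2(TPM + 1) scale and a limma adjusted p of 3.11e-07. Across the alternative fits its limma adjusted p was larger, from 3.41e-06 to 0.056, and the call was lost in the fit with no filter on low values, at 0.056. At an unadjusted p under 0.05, 1599 genes passed, 2 members among them (Alas1 and Uros). The limma adjusted p of Uros was 0.21. The model had 1 residual degree of freedom beside prior degrees of freedom of 10.9. The SE and p-value of a gene thus rest mostly on the spread of all genes fitted. For Alas1 the change was 2.97 with sevoflurane and 3.99 with desflurane, a difference that its SE holds only in part. With 1 library per group the p-values do not measure the spread between animals.

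Among the enzymes after ALAS1, the cytosolic ones come first. Alad, which joins a pair of aminolevulinate molecules into porphobilinogen, had a TPM of 111 and 98.7 in sevoflurane 0 h and 6 h, and of 114 and 91.8 in desflurane 0 h and 6 h. Its ratios were 0.89 and 0.80, and the limma adjusted p of the common change was 0.367. Alad, at chr5:78368868-78379206 on the minus strand in rn6, was the most abundant synthesis enzyme in both controls and stood behind Alas1 in both 6 h libraries.

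Uros forms the asymmetric ring from which heme is made, and it was the least abundant member. Its TPM was 3.96 in sevoflurane 0 h, 3.37 in sevoflurane 6 h, 5.92 in desflurane 0 h and 2.30 in desflurane 6 h. The desflurane libraries held both the highest and the lowest value, with the sevoflurane libraries between them. Uros lies at chr1:205756638-205777167 on the minus strand. The ratio was 0.85 with sevoflurane and 0.39 with desflurane, and only the latter passed the rule of size. Against sevoflurane 0 h the ratio of desflurane 6 h was 0.58, which did not pass, while it was 0.47 against the mean of both controls and 0.42 after scaling by the median of ratios, which did. The mean coverage behind the 4 values was 9.35, 11.5, 20.4 and 8.37 reads per base, and the common change in limma was -0.63 ± 0.27 (SE) on the log2(TPM + 1) scale.

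Urod, which trims the side chains of the ring, was the steadiest member. Its TPM was 43.0 and 42.4 with sevoflurane and 44.1 and 43.5 with desflurane, and the highest library was 1.04 times the lowest. The gene lies at chr5:135855429-135859515 on the minus strand. limma gave an adjusted p of 0.969 for its common change. Its start region, printed in part above, held both an E-box and a forkhead site.

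The last 3 enzymes work in the mitochondrion. Cpox (chr11:44039666-44049648, minus strand), which oxidizes coproporphyrinogen, had a TPM of 24.1 and 28.0 with sevoflurane and 27.0 and 24.2 with desflurane. Its ratios lay on either side of 1, at 1.16 and 0.90, but were 1.04 and 1.01 when the controls were exchanged. Ppox (chr13:89650094-89654229, minus strand), which makes the porphyrin, had a TPM of 13.6 and 10.2 with sevoflurane and 14.9 and 12.3 with desflurane. Fech (chr18:59941992-59975192, minus strand), which inserts iron to finish heme, had a TPM of 22.6 and 18.4 with sevoflurane and 23.2 and 20.0 with desflurane. For Ppox and Fech both 6 h values lay below both controls, with ratios of 0.75 and 0.82 for Ppox and 0.81 and 0.86 for Fech. None of these changes passed, with limma adjusted p values of 0.964 for Cpox, 0.412 for Ppox and 0.511 for Fech.

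**Figure D2:**
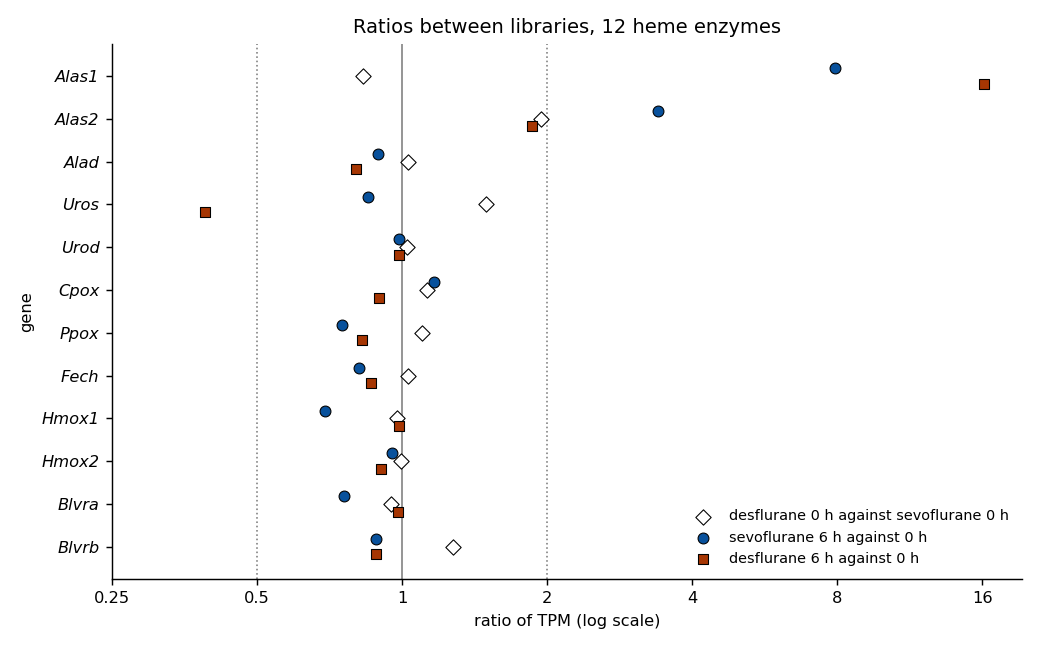
Ratio of TPM on a log scale for 12 heme enzymes, with circles for sevoflurane 6 h against 0 h, squares for desflurane 6 h against 0 h and open diamonds for the 2 controls against each other. Dotted lines mark ratios of 0.5 and 2. Alas1 stands at 7.92 and 16.1, Uros at 0.39 with desflurane and Alas2 at 3.40 with sevoflurane, and the other points lie between the dotted lines.

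The make-up of the synthesis transcripts shifted with Alas1. The summed TPM of the 7 member synthesis enzymes was 292 in sevoflurane 0 h, 783 in sevoflurane 6 h, 290.3 in desflurane 0 h and 1173 in desflurane 6 h. The controls had nearly the same sum, and it was 2.69 and 4.04 times as high after 6 h. Without Alas1 the sum was 218, 201, 229 and 194 in the same order, with ratios of 0.921 and 0.846. Alas1 made up 25.2% and 21.0% of the transcripts of these enzymes in the controls, and 74.3% and 83.5% after sevoflurane and desflurane. Per transcript of Fech, the last enzyme, there were 3.25 and 2.62 of Alas1 in the controls, and 31.6 and 49.0 after sevoflurane and desflurane.

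**Figure D3:**
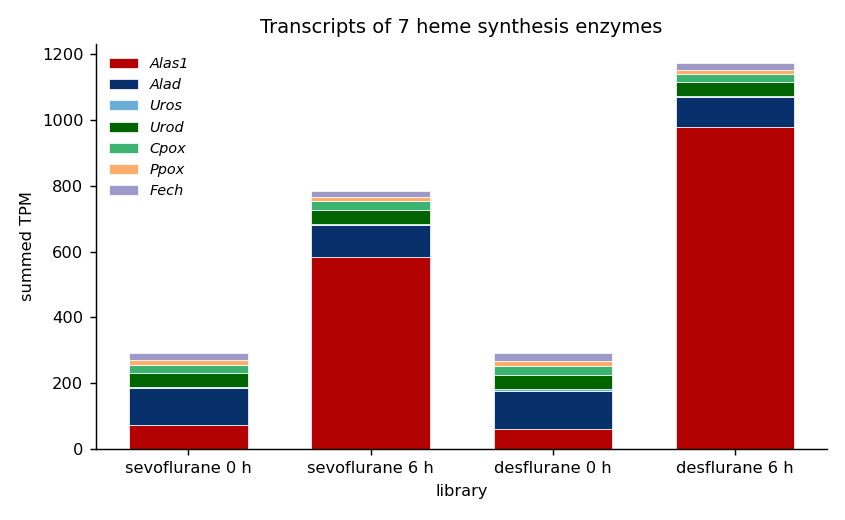
Summed TPM of 7 heme synthesis enzymes in each of the 4 libraries, with each bar divided by enzyme. The Alas1 segment takes 25.2% and 21.0% of the bar in the controls and 74.3% and 83.5% at 6 h, while the sum of the other segments stays between 194 and 229.

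Genes of heme breakdown were not called with either agent. Hmox1, the inducible heme oxygenase, had a TPM of 14.1 in sevoflurane 0 h, 9.76 in sevoflurane 6 h, 13.8 in desflurane 0 h and 13.6 in desflurane 6 h. The sevoflurane 6 h library was low and the other 3 were alike. Hmox1 lies at chr19:14508634-14515456 on the plus strand, its ratios were 0.69 and 0.98, and the limma adjusted p was 0.564. Hmox2, the constitutive heme oxygenase, had a TPM of 26.5 and 25.3 with sevoflurane and 26.4 and 23.8 with desflurane. There were 0.53 and 0.39 Hmox1 transcripts per Hmox2 transcript in sevoflurane 0 h and 6 h, and 0.52 and 0.57 in desflurane 0 h and 6 h.

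Blvrb, a biliverdin and flavin reductase, was the most abundant member in desflurane 0 h and stood behind Alad alone in sevoflurane 0 h, with a TPM of 98.2 and 86.8 in sevoflurane 0 h and 6 h and 125 and 110 in desflurane 0 h and 6 h. Both desflurane libraries were above both sevoflurane libraries. Blvrb lies at chr1:84256063-84273726 on the plus strand, its ratio was 0.88 with both agents, and the limma adjusted p was 0.529. The controls differed by a ratio of 1.28, further apart than either 6 h library lay from its own control. Blvra, the main biliverdin reductase of the adult, had a TPM of 21.0 and 15.9 with sevoflurane and 19.9 and 19.5 with desflurane, and like Hmox1 it was lowest in sevoflurane 6 h.

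Hmox1 is also strongly made by Kupffer cells, the resident macrophages of the liver, and their markers were read beside it. Of the 13 macrophage and Kupffer cell markers found, 12 were above a TPM of 2 and 0 were called with either agent. With sevoflurane 11 of the 12 had a ratio below 1, and with desflurane 11 of the 12 had a ratio above 1. Their summed TPM was 623 in sevoflurane 0 h, 524 in sevoflurane 6 h, 586 in desflurane 0 h and 683 in desflurane 6 h, and Clec4f, the most abundant, was at 134, 112, 134 and 141. The marker sum was lowest in the same library as Hmox1. Their part in the Hmox1 values was not tested, and in bulk liver fewer cells of a type and less RNA per cell cannot be told apart.

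Alas2, the red blood cell form, behaved differently from the other enzymes outside the 9 members. Its TPM was 1.57 in sevoflurane 0 h, 5.32 in sevoflurane 6 h, 3.03 in desflurane 0 h and 5.64 in desflurane 6 h, both 6 h values being above both controls. The gene lies at chrX:23167576-23187356 on the minus strand. The ratio was 3.40 with sevoflurane, which was called, and 1.86 with desflurane, which was not. The controls themselves differed by 1.94. limma gave a common change of 1.01 ± 0.25 (SE) on the log2(TPM + 1) scale with an adjusted p of 0.0236. Without the agent block the limma adjusted p was 0.056, and in such fits it was 0.292 without sevoflurane 0 h, 0.077 without sevoflurane 6 h, 0.123 without desflurane 6 h and 0.0404 without desflurane 0 h.

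Red blood cell markers were read beside Alas2. Of 12 such genes found, 6 were above a TPM of 2. These were Alas2 itself and the globin rows Hba1, Hba-a2, Hbb, Hbb-b1 and Hbb-bs. All 6 were called higher with sevoflurane and 0 with desflurane, beside 5.04% and 4.1% of all genes tested, and limma called all 6 higher in common. This does not show a difference between the agents, since the 6 markers were already 1.43 to 1.94 times as high in desflurane 0 h as in sevoflurane 0 h. With desflurane their ratios were 1.45 to 1.99, of which 4 passed 2 after scaling by the median of ratios, and against the mean of both controls 5 of the 6 were called with each agent. Their summed TPM was 654 and 1732 in sevoflurane 0 h and 6 h, and 1030 and 1921 in desflurane 0 h and 6 h. Hbb, the beta globin gene and the most abundant of them, had a TPM of 291 and 797 with sevoflurane and 491 and 872 with desflurane. Hba1 and Hba-a2 are near-identical copies that share reads and cannot be counted apart. Of the markers below a TPM of 2, Hba-a1, Slc4a1 and Ahsp were higher at 6 h with both agents, while Epb42 and Klf1 were lower. Rhag was listed at 0 in 3 libraries. The part of red blood cells in the Alas2 values was not tested, and Alas1 was between 20.1 and 174 times as abundant as Alas2 in every library.

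**Figure D4:**
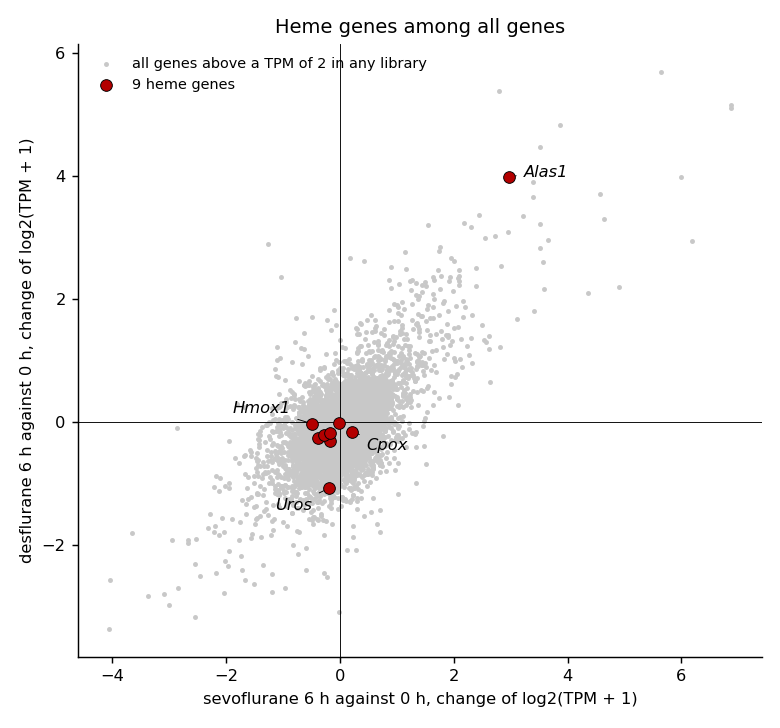
Change of log2(TPM + 1) after 6 h with sevoflurane on the horizontal axis and with desflurane on the vertical axis, for all genes above a TPM of 2 in any library (grey) and the 9 heme genes (red). Alas1 lies near the upper right edge of the cloud, Uros lies below the other members, and the rest sit within the dense centre.

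Genes around the pathway were counted by lists, which were chosen with earlier results of these data known. Over all genes tested, 5.04% were called higher and 3.71% lower with sevoflurane, and 4.1% and 5.55% with desflurane. For the precursors of ALAS1, glycine and succinyl-CoA, 11 genes were measured and 0 were called higher with either agent. Gldc, the glycine decarboxylase that breaks glycine down, was the 1 gene called lower, with a TPM of 26.0 and 11.2 with sevoflurane (ratio 0.43) and 17.4 and 11.1 with desflurane (ratio 0.64, not called). The call was lost against the mean of both controls. Gldc was named after its values were seen. Of 15 genes tested for transport and chaperoning of heme and iron, 1 was called higher and 1 lower with sevoflurane and 0 with desflurane, where 1 was called higher after scaling by the median of ratios. Those called with sevoflurane were Slc25a28, mitoferrin 2, which brings iron into mitochondria (TPM 7.23 and 16.0 with sevoflurane, 10.7 and 20.2 with desflurane), and Slc46a1, a folate and heme carrier (45.1 and 19.2 with sevoflurane, 39.0 and 22.5 with desflurane). Both passed limma for the common change, with adjusted p values of 0.00827 and 0.00314, as did Pgrmc2, a heme chaperone, at -0.75 ± 0.16 (SE) and an adjusted p of 0.00885. These 3 were named after their values were seen. Against the mean of both controls the sevoflurane call of Slc25a28 was lost, and 1 gene of the transport list was called higher with desflurane.

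Scavenging and excretion genes were not called by the rule of size. Of the 4 scavenging genes 0 were called, and Hpx, the plasma protein hemopexin that binds free heme, had a TPM of 2428 and 2754 in sevoflurane 0 h and 6 h, and 2425 and 2455 in desflurane 0 h and 6 h. Of the 3 bilirubin genes above a TPM of 2, 0 were called, though all 3 had ratios above 1 with both agents (1.34 to 1.67 with sevoflurane and 1.05 to 1.57 with desflurane). Ugt1a1, the enzyme that conjugates bilirubin, had a TPM of 217 and 362 with sevoflurane and 254 and 397 with desflurane, ratios of 1.67 and 1.57. It rose in the common change of limma, by 0.69 ± 0.12 (SE) with an adjusted p of 0.00265, while Abcc2, which exports conjugated bilirubin, was at an adjusted p of 0.0533. Both were named after their values were seen.

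Of 16 measured regulators known to act on Alas1, Hmox1 or heme in general, sevoflurane had 5 higher and 2 lower, desflurane had 6 higher and 1 lower, and limma called 5 higher and 3 lower. Over all genes 5.04% were higher and 3.71% lower with sevoflurane, 4.1% and 5.55% with desflurane, and 4.69% and 3.94% in limma. The list was chosen with earlier results known, so its counts are no test of enrichment. Ppargc1a, the coactivator PGC-1α that drives Alas1 in fasting, had a TPM of 0.0255 and 2.48 with sevoflurane and 0.412 and 9.09 with desflurane. Its controls were too low for a useful ratio, and its common change in limma was 2.30 ± 0.29 (SE) on the log2(TPM + 1) scale with an adjusted p of 0.00024. Nr1d1, the clock repressor REV-ERBα, had a TPM of 0.407 and 7.65 with sevoflurane and 2.41 and 7.95 with desflurane, and its controls already differed by 5.91. Nr1i2, the xenobiotic receptor PXR, had a TPM of 26.0 and 99.7 with sevoflurane and 34.1 and 90.9 with desflurane, ratios of 3.83 and 2.66. All 3 were higher in both 6 h libraries than in both controls. Among the other regulators, Nr1i3, Nrf1 and Nr3c1 did not rise with both agents. With sevoflurane and desflurane the ratios were 1.02 and 0.67 for Nr1i3, 0.91 and 0.79 for Nrf1, and 0.55 and 0.68 for Nr3c1. None of these was called by the rule of size, and Nr3c1 was lower in limma with an adjusted p of 0.0194. They were named after their values were seen.

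The other 3 regulators called the same way with both agents were named after their values were seen. Foxo1, a forkhead factor held down by insulin, had a TPM of 2.45 and 5.27 with sevoflurane and 3.06 and 7.44 with desflurane. Bach1, the heme-binding repressor of Hmox1, had a TPM of 7.54 and 19.5 with sevoflurane and 10.5 and 35.4 with desflurane. Nfe2l2, which encodes the activator NRF2, was lower, at 78.6 and 31.2 with sevoflurane and 62.6 and 23.0 with desflurane. The repressor was higher and the activator lower with both agents. With sevoflurane and desflurane the Bach1 ratios were 2.58 and 3.36, and the Hmox1 ratios were 0.69 and 0.98. The part of either regulator in the Hmox1 values was not tested. Of 10 NRF2 target genes tested, 0 were higher and 1 lower with each agent, and limma called 0 higher and 2 lower. The gene called with both agents was Osgin1, an oxidative stress response gene, with a TPM of 91.4 and 10.5 with sevoflurane and 67.0 and 7.73 with desflurane. The other one in limma was Gclm, a subunit of the first enzyme of glutathione synthesis, with ratios of 0.58 and 0.56 and an adjusted p of 0.00216, named after its values were seen. Clpx, the mitochondrial protease subunit that degrades ALAS1 when heme is bound, had a TPM of 199 and 71.0 with sevoflurane, a ratio of 0.36, and 168 and 112 with desflurane, a ratio of 0.67. It passed limma with an adjusted p of 0.00323 and was also named after its values were seen.

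Hemoproteins of the liver are the users of heme. Of 18 measured, sevoflurane had 6 higher and 1 lower, desflurane had 5 higher and 1 lower, and limma called 8 higher and 1 lower. The shares over all genes were 5.04% and 3.71% with sevoflurane, 4.1% and 5.55% with desflurane, and 4.69% and 3.94% in limma. This list too was chosen with earlier results known, and its counts are no test of enrichment. Cyp2b1, a drug-inducible cytochrome P450, had a TPM of 5.73 and 790 with sevoflurane and 12.1 and 465 with desflurane. Its close relative Cyp2b2 had a TPM of 35.5 and 418 with sevoflurane and 29.8 and 217 with desflurane. The 2 genes are near-identical, and the division of reads between them is uncertain. Cyp4a2, a fatty acid hydroxylase, was lower, with a TPM of 558 and 76.9 with sevoflurane and 1075 and 165 with desflurane. Tdo2, a heme enzyme that degrades tryptophan, was among the 5 called the same way with both agents and was named after its values were seen, with a TPM of 565 and 1766 with sevoflurane and 422 and 2093 with desflurane. The hemoproteins together had a summed TPM of 6961 and 11375 with sevoflurane and 7310 and 10643 with desflurane.

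**Figure D5:**
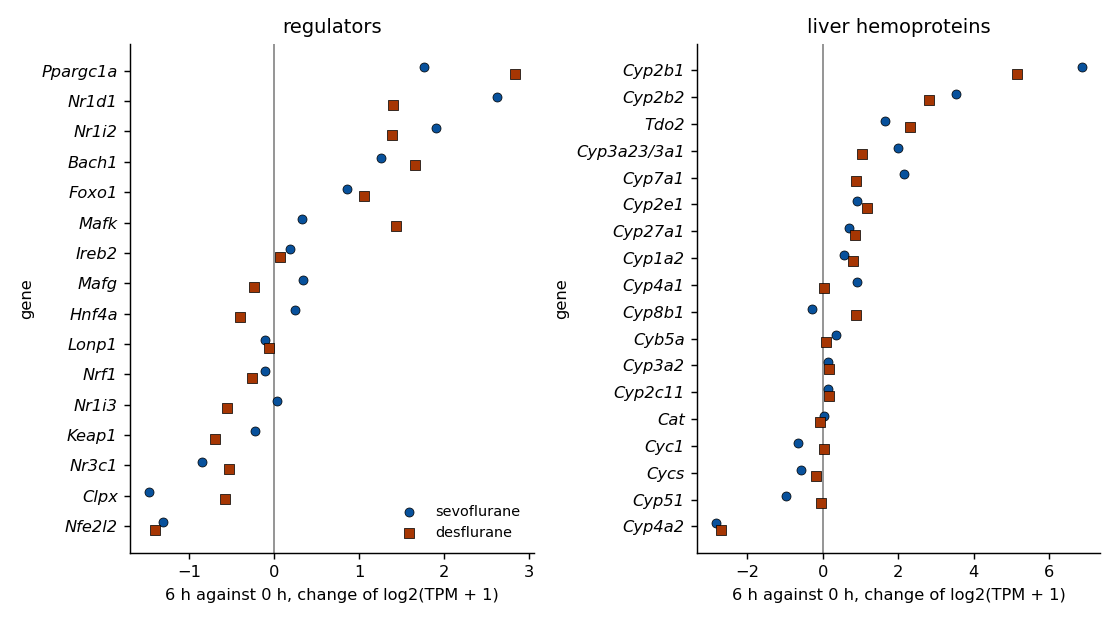
Change of log2(TPM + 1) after 6 h for the 16 regulators (left) and the 18 liver hemoproteins (right), with circles for sevoflurane and squares for desflurane. Ppargc1a, Nr1d1 and Nr1i2 stand to the right and Nfe2l2 to the left for both agents, and Cyp2b1 and Cyp4a2 are the extremes of the hemoproteins.

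Genes with the pattern most like that of Alas1 were sought among 3993 genes whose mean TPM was 10 or more, by the root mean square distance of centred log2(TPM + 1) over the 4 libraries. Nearest was Got1, the cytosolic aspartate aminotransferase, at a distance of 0.26, with a TPM of 18.5 and 203 with sevoflurane and 15.5 and 207 with desflurane. Next came Slc25a32, a mitochondrial folate carrier, at 0.33, Edem1, a factor of protein degradation in the endoplasmic reticulum, at 0.35, Noct, which encodes nocturnin, at 0.37, and Lpin1, a phosphatidate phosphatase, at 0.39. Lpin1 had a TPM of 5.58 and 74.0 with sevoflurane and 7.43 and 186 with desflurane. The same search from Hmox1 gave, among others, Bscl2, Tyrobp, Psme2 and Tm7sf2 at distances of 0.016 to 0.041. Bscl2, the seipin gene, had a TPM of 13.6 and 9.24 with sevoflurane and 13.5 and 13.1 with desflurane, low in sevoflurane 6 h as Hmox1 was. Likeness over 4 libraries is a description, and many flat genes lie close to one another by it.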

How the data were processed

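Liver total RNA was prepared with an RNeasy Midi kit and sequenced from TruSeq stranded total RNA libraries, per the labels. Submitters' processing notes name HISAT2, SAMtools, StringTie and rn6, and give no versions. The authors deposited 1 StringTie gene table per library. Its TPM column was handled as a score, because the deposited TPM of assembled loci alone sum to the full TPM total and named genes add 0.766 to 0.789 of it. FPKM values, deposited beside them, were used as an alternative. Deposited coverage (signal, mean reads per base) is not scaled for depth. No read counts were used, so counting intervals could not be given, and no block of replicates could be checked.

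Rows spanning 200 bp or less were dropped and rows of 1 symbol summed, which kept 16999 of 17455 symbols. Libraries were grouped by title and source labels. Ratios were taken between single libraries. The common change was fitted with limma 3.58.1 in R 4.3.3 on log2(TPM + 1) for 8024 genes whose mean TPM was 2 or more, with agent as a block, trended eBayes (prior degrees of freedom 10.9), two-sided, with Benjamini-Hochberg adjustment. Scripts ran in Python 3.11.15 and were tested on simulated data. All 12 heme enzymes named were found in the RefSeq gene table of GRCr8, whose start regions were used for sequences only, and Flvcr1, Rora and Timd4 of the related lists were not analysed here. Named genes were the 12 enzymes, up to 3 per list called the same way with both agents, the most abundant gene of each cell type list, and the 5 genes nearest to Alas1 and to Hmox1. Members and lists were chosen with earlier results of these data known. Some genes are not reported here.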

Additional observations from a re-analysis of the deposited data

Results flagged for a closer look

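The Cpox ratios lay on opposite sides of 1 for the 2 agents. The ratio of Cpox was 1.16 after sevoflurane against 0.90 after desflurane, and the log2 change with desflurane minus that with sevoflurane was -0.36. With 1 library per group the difference was not tested, and the controls differed from each other by a ratio of 1.12. With the controls exchanged between the agents the ratios of Cpox were 1.04 with sevoflurane and 1.01 with desflurane, no longer on opposite sides.

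A separate assembled fragment lay at the 5′ end of Alas1, inside the span of the named gene. It covered 4.59% of the gene and had a TPM of 18.9 in sevoflurane 6 h and 2.43 in desflurane 0 h, and no such fragment was listed in the other 2 libraries, desflurane 6 h included, where the named gene was highest. The main assembled locus over Alas1 covered 92.2% to 92.9% of the gene and was 1.04 to 1.09 times the named value in every library. It began 949 to 1040 bases inside the annotated rn6 start.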

How the results depend on the processing

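The labels carry no replicate numbers, and the agent was the only pairing that could be fitted. Of the values recomputed, 427 kept their side of their rule or stayed within its range, 76 counts or ratios moved, 3 passed newly, 8 no longer passed, and 3 limma changes that had not passed turned sign. These were Urod, -0.02 as reported and 0.0070 after scaling by the median of ratios, and Cpox, 0.03 as reported and from -0.0727 to 0.129 with 1 library left out (-0.0525 without sevoflurane 0 h and -0.0727 without sevoflurane 6 h). Of 233 alternative ratios 13 crossed 1, all of genes not called, with Blvrb after desflurane at 0.88 and at 1.12 against the other control as the widest. The count of members called lower with desflurane, 1 (Uros), was 0 with a ratio above 3 and 0 with the control of the other agent. The count called higher between the 6 h libraries, 0, was 1 (Alas1) with a ratio above 1.5. The count of members called by limma, 1, was 0 with no filter on low values, where Alas1 had a limma adjusted p of 0.056 and 25 genes passed in all. Over the alternatives the limma adjusted p of Alas1 ranged from 3.41e-06 to 0.056. Without the agent block limma called 488 genes in place of 692. In fits of that form with 1 library left out, chosen after seeing the data, it called 163 genes (without sevoflurane 0 h), 591 (sevoflurane 6 h), 283 (desflurane 0 h) or 411 (desflurane 6 h), Alas1 among them each time. Without the trend it called 440. Ratios above 1.5 or 3 called 1924 or 284 genes with sevoflurane (724), 2027 or 311 with desflurane (808), 872 or 46 between controls (228) and 1179 or 83 between 6 h libraries (328). No minimum TPM gave 3028, 3188, 2335 and 2590, a TPM above 5 gave 529 with desflurane, 101 between controls and 157 between 6 h libraries, and FPKM gave 137 between controls. The share of calls that were higher was 57.6% with sevoflurane but 44.9% against the other control, 42.5% with desflurane but 54.1% after scaling by the median of ratios, 57.1% against the other control and 54.3% with a ratio above 3, and 71.1% between the controls but 53.5% after scaling. Alas2 with desflurane reached a ratio of 2.01 after scaling and 3.61 against the other control, and with sevoflurane fell to 1.75 against the other control. The cause of these shifts was not tested. The assembled locus gave no value for Blvrb with desflurane. Depth limits Uros and Alas2 most.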
